A study of Mus musculus with 8 samples.

Results

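The genes described here are 39 DNA replication and S phase genes, followed in cells of the mouse cochlear nucleus. They were chosen by name, as the rows of the count table whose Ensembl identifier maps to one of 39 listed symbols, and all 39 were found among 39017 genes and passed the low-count filter that left 19494 genes for testing. The cochlear nucleus is the auditory relay of the hindbrain. Cells were sorted by FACS for tdTomato, a red reporter at the Rosa locus that is switched on by Cre driven from Math1 (Atoh1), a gene that marks the rhombic lip. Embryos were C57BL/6 at E18.5. The mutant group carried Math1::Cre, the Rosa tdTomato reporter and conditional alleles that the sample titles give as Hoxa2+/fl and Hoxb2fl/fl, whereas the design text gives both Hox genes as fl/fl. The wild type group carried Math1::Cre and Rosa tdTomato without the conditional alleles. There were 4 mutant and 4 wild type libraries, each from 30000 sorted cells of 3 pooled littermates, with a different mother for each library. Libraries are named by group and by the running number in the table's heading, as mutant 1 to 4 and wild type 5 to 8, because the headings do not carry the replicate numbers of the titles.

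DNA replication is prepared in G1, when the origin recognition complex, Cdc6 and Cdt1 load the MCM helicase on origins. In S phase Cdc45 and the GINS complex turn it into the active helicase, and polymerases, the Pcna clamp and its loader copy the DNA. Most of these genes are transcribed under E2F control at the G1/S boundary, so their RNA is a usual mark of cycling cells. In the hindbrain the Atoh1 lineage includes granule cell precursors, which still divide around birth, and neurons that have left the cycle.

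Total counts ranged from 24789043 to 51118195 per library, and the 39 genes together took 23377 to 56499 counts. The lowest single value was Ccne1 in mutant 4, with 69 counts, or 1.75 CPM of the unscaled total (exact Clopper-Pearson 95% interval 1.36 to 2.22, which covers counting error only). Levels below are TMM-scaled CPM. Of the targeted genes, Hoxb2 stood at 6.81, 3.82, 3.77 and 5.67 CPM in mutant 1 to 4 against 37.4, 46.6, 37.5 and 38.9 CPM in wild type 5 to 8. Hoxa2 stood at 19.9, 48, 11.1 and 27.8 CPM in mutant 1 to 4 against 30.8, 55.1, 49.2 and 37.7 CPM in wild type 5 to 8, so that its groups overlapped. The log2 fold change, mutant over wild type, was -3.00 for Hoxb2 (edgeR adjusted p = 3.76e-05) and -0.70 for Hoxa2 (edgeR adjusted p = 0.506). Genes of the sorted lineage were present in every library, as the 10 rhombic lip and granule progenitor genes (Atoh1, Barhl1, Pax6 and Zic1 among them) summed to 4784 to 6268 CPM in mutant and 4465 to 5232 CPM in wild type libraries.

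None of the 39 genes passed the test of mutant against wild type (edgeR quasi-likelihood test, Benjamini-Hochberg adjusted p below 0.05), in either direction. Over all tested genes 70 passed, or 0.359%, with 0.144% higher and 0.215% lower, so that a count of 0 among 39 is near the background. DESeq2 also called 0 of the 39 where it called 2.51% of all genes, as did limma-voom, which called 0.354% of all genes plain and 1.2% with quality weights. At an unadjusted p below 0.05 there were 7, namely Mcm2, Mcm3, Mcm4, Gins2, Fen1, Lig1 and Chaf1b, all lower in mutant libraries, where 5.29% of all tested genes were lower and 7.22% higher at that p. The direction was nearly uniform. A negative log2 fold change was fitted for 37 of 39 genes, against 51.6% of all tested genes, and the median was -0.40 against -0.01 for all tested genes. The exceptions were Orc6 and Rfc5. The 39 genes vary together between libraries, so that their signs are not 37 separate observations. For none of the 39 did the mutant and wild type libraries stand apart without overlap, which 6.17% of all tested genes did.

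Libraries of the same genotype differed in the level of these genes. The summed level of the 39 genes was 1229, 921, 970.1 and 786 CPM in mutant 1 to 4 and 1452, 1561, 867 and 1162 CPM in wild type 5 to 8. Mutant 1 was thus the high library of its group, above wild type 7 and wild type 8, and wild type 7 was the low library of its group, below mutant 2 and mutant 3. The group means were 977 ± 185 CPM in mutant and 1260.5 ± 312 CPM in wild type libraries (SD, n = 4 each), a ratio of 0.775, while the highest library exceeded the lowest 1.56-fold among mutants and 1.8-fold among wild types. For each of the 39 genes the range within a genotype exceeded the fold between the group means, as it did for 97.4% of all tested genes, so that this count is near the background. In these bulk samples fewer cells in S phase and less RNA per cell cannot be told apart.

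**Figure D1:**
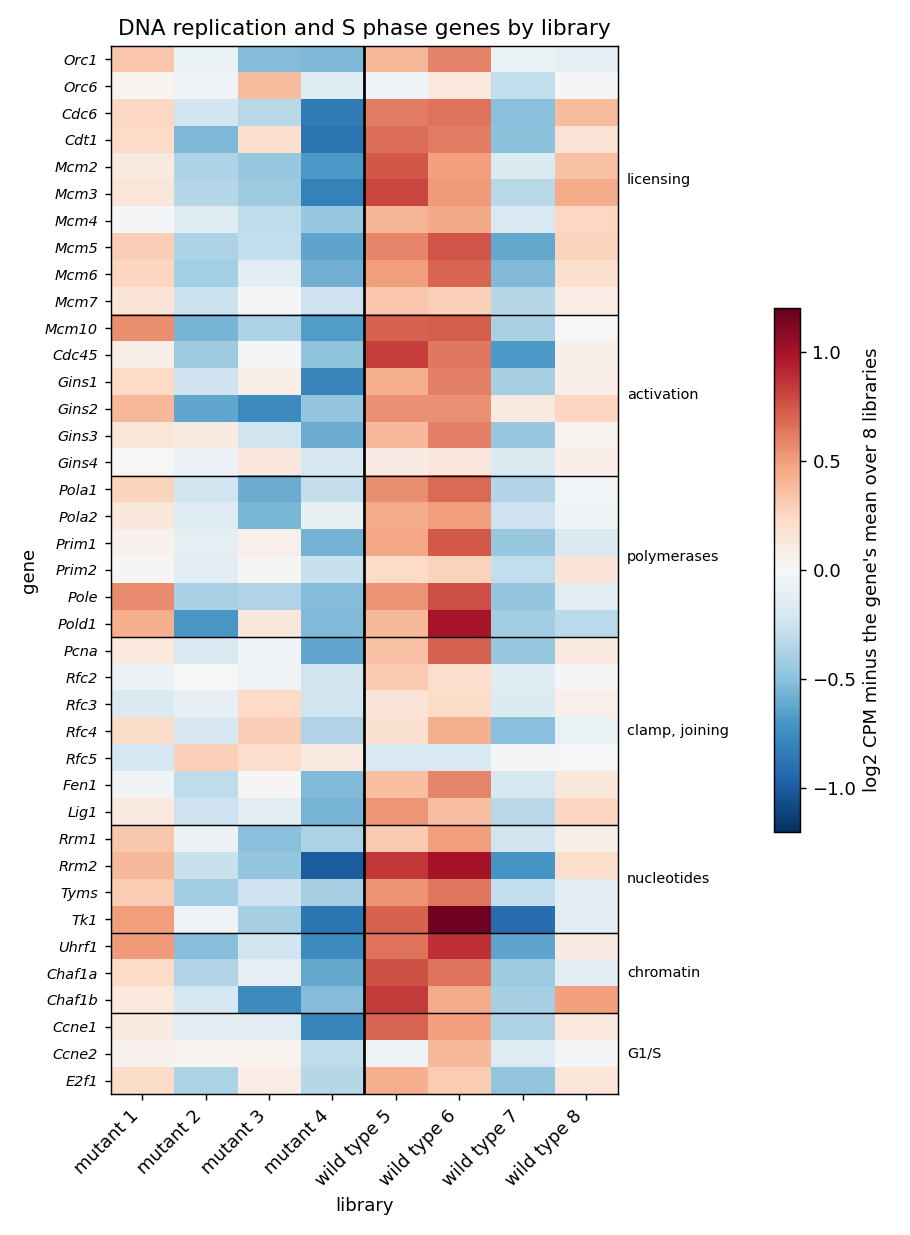
Each cell gives the log2 CPM of a gene (rows, grouped by role) in a library (columns, mutant left of the line and wild type right) minus that gene's mean over all 8 libraries. Mutant 1, wild type 5 and wild type 6 are red for most genes, mutant 4 and wild type 7 are blue, and Rfc5 runs the other way.

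The same libraries were high and low for most of the 39 genes. Mutant 1 was the highest mutant library for 31 of 39 genes, against 26.9% of all tested genes. Mutant 4 was the lowest for 29, against 20.7% of all tested genes. Among wild types, wild type 6 was the highest for 27 and wild type 5 for 11, against 30.1% and 21.1% of all tested genes. Wild type 7 was the lowest for 37 of 39, against 25.6% of all tested genes. Wild type 5 and wild type 6 were the 2 highest wild type libraries for 35 genes, and mutant 1 lay above wild type 7 for 37 genes and above wild type 8 for 26. In no gene did mutant 1 exceed wild type 6. These orders between named libraries were picked after the values were seen, and their share over all tested genes was not counted.

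The replicative helicase and its loaders included the genes with the smallest p. Mcm2 to Mcm7 form the ring that unwinds the DNA, and all 6 had a negative fold change. Mcm2 (ENSMUSG00000002870, chromosome 6, 88883474 to 88898780, mm10) had 40.7, 29.3, 27.6 and 23.4 CPM in mutant 1 to 4, against 63.2, 53.1, 33.5 and 48.2 CPM in wild type 5 to 8. Mutant 2 to 4 lay below every wild type library, and mutant 1 lay between wild type 7 and wild type 8. The means were 30.2 ± 7.38 CPM in mutant and 49.5 ± 12.4 CPM in wild type libraries (SD, n = 4 each), a log2 fold change of -0.71 (edgeR adjusted p = 0.208, SE 0.206). Mcm3 had 22.4, 16, 15 and 11.5 CPM in mutant 1 to 4, against 35.3, 28.9, 16.1 and 27.5 CPM in wild type 5 to 8. Mutant 2 to 4 again lay below every wild type library, but mutant 2, at 16 CPM, nearly equalled wild type 7, at 16.1 CPM. For Mcm3 the log2 fold change was -0.73 (edgeR adjusted p = 0.276, SE 0.247). Only Mcm2, Mcm3 and Gins2 of the 39 genes had that order, which sets mutant 1 aside after the values were seen. The share of all tested genes with that order was not counted.

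Mcm6 (chromosome 1, 128331590 to 128359664), the subunit with the highest level, had 76.5, 48.5, 58.6 and 42.9 CPM in mutant 1 to 4, against 90.7, 104, 44.5 and 73.2 CPM in wild type 5 to 8. Wild type 7 stood among the low mutants, and the groups overlapped over most of their range, with a log2 fold change of -0.46 (edgeR adjusted p = 0.488, SE 0.256). The other ring subunits had log2 fold changes of -0.48 for Mcm4 (SE 0.151), -0.54 for Mcm5 (SE 0.282) and -0.20 for Mcm7 (SE 0.155), with edgeR adjusted p of 0.24, 0.457 and 0.616.

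Windows of 300 bases from 250 before to 50 after the RefSeq gene start (build GRCm38.p6) were searched for the E2F consensus, spelled as the 4 words TTTCCCGC, TTTCGCGC, TTTGCCGC and TTTGGCGC on either strand. Overlapping words were counted. A window was found for 31 of the 39 genes, and 13 of the 31 held a word, or 41.9%, against 2.6% of all 27025 genes with a window. Shown are 3 ring subunits that moved with the shared library pattern, and Rfc5, which did not. They were picked as examples and do not stand for all 39 genes. The windows lie at chr1:20820263-20820562 for Mcm3, chr8:75109259-75109558 for Mcm5, chr1:128359656-128359955 for Mcm6 and chr5:117388974-117389273 for Rfc5, on the minus strand except for Mcm5, and capitals mark the E2F words.
Mcm3: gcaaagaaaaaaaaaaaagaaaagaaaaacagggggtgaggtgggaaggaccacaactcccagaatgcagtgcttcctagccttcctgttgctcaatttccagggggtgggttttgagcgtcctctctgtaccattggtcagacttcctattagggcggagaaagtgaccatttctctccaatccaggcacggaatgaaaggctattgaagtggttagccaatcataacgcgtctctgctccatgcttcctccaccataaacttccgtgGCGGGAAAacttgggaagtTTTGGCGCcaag
Mcm5: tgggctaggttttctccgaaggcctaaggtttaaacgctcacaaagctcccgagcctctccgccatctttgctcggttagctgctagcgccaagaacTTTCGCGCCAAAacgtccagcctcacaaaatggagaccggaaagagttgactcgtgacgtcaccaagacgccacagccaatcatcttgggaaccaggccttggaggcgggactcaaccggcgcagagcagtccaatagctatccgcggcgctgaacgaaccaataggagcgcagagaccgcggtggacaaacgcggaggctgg
Mcm6: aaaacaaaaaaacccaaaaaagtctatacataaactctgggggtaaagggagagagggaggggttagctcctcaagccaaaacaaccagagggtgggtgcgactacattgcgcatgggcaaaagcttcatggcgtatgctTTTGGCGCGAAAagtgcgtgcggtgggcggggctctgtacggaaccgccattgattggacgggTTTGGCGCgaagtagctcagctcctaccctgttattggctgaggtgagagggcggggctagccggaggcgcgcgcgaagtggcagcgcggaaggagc
Rfc5: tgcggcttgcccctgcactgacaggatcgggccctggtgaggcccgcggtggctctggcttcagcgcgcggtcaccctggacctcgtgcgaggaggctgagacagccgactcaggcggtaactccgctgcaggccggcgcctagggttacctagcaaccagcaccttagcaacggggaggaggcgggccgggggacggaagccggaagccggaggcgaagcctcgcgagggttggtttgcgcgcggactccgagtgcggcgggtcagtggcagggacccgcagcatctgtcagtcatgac
Mcm6 held 3 words, of which 2 overlap, Mcm5 held 2 that overlap, Mcm3 held 2 just inside the gene, and the Rfc5 window held none. As a description, the highest wild type library exceeded the lowest by a median of 2.2-fold for the 13 genes with a word and 2.01-fold for the 18 without, and Rrm2 and Tk1, which spread most among wild types, had none in these windows. The median log2 fold change was -0.45 with a word and -0.43 without. Mcm2 also held no word, while Rfc3, with 2 words, spread only 1.31-fold among wild types. The CCAAT box, CCAAT on either strand, was in 58.1% of the 31 genes and in 41.1% of all genes with a window.

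Of the loading factors, Cdc6 and Cdt1 bring the ring to the origin, and Orc1 and Orc6 are subunits of the origin recognition complex. Cdc6 averaged 7.3 ± 2.24 CPM in mutant and 11 ± 3.44 CPM in wild type libraries, and Cdt1 averaged 15.8 ± 5.69 CPM in mutant and 22 ± 7.26 CPM in wild type libraries (SD, n = 4 each). Orc1, at 4.41 ± 1.32 CPM in mutant and 5.78 ± 1.41 CPM in wild type libraries, followed the same pattern. Orc6 did not. It had 42, 40.1, 53.7 and 37.3 CPM in mutant 1 to 4, against 40.1, 45.1, 33.6 and 40.7 CPM in wild type 5 to 8, a log2 fold change of 0.12 (edgeR adjusted p = 0.741, SE 0.138), and mutant 3 was its highest library.

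Among the helicase activation genes, Gins2 (chromosome 8, 120578633 to 120589304), a subunit of the GINS complex that joins Cdc45 on the helicase, had 106, 52.2, 47.6 and 58.4 CPM in mutant 1 to 4, against 118, 118, 86.7 and 96.6 CPM in wild type 5 to 8. Mutant 1 stood within the wild type range and the other 3 mutants stood far below it. With all libraries the log2 fold change was -0.67 (edgeR adjusted p = 0.303, SE 0.238), and without mutant 1 it was -0.99 (edgeR adjusted p = 0.00538, SE 0.139), where 1.03% of all genes passed as lower. Gins2 shares 67.3% of its exonic bases with Gse1 on the opposite strand, and nothing in the sources used here says that counting used strand, so reads of both genes cannot be told apart there. Gse1 had mutant 1 high and the other mutants low in the same way, at 194, 81.7, 81.6 and 104 CPM in mutant 1 to 4 and 193, 215, 151 and 155 CPM in wild type 5 to 8, and it too passed without mutant 1 (log2 fold change -1.0, edgeR adjusted p = 0.00739).

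The other GINS subunits did not share that step. Gins4, also of chromosome 8 (23226616 to 23237659), had 12.4, 11.7, 13.5 and 10.8 CPM per kb in mutant 1 to 4, against 13.2, 13.6, 10.9 and 13 CPM per kb in wild type 5 to 8, a log2 fold change of -0.06 (edgeR adjusted p = 0.864, SE 0.129). It was among the steadiest of the 39 genes in both genotypes. For Gins1 the log2 fold change was -0.36 (SE 0.25) and for Gins3 it was -0.32 (SE 0.247). Cdc45, at 7.57 ± 1.48 CPM in mutant and 10.8 ± 4.48 CPM in wild type libraries, and the activation factor Mcm10, at 8.55 ± 3.79 CPM in mutant and 12.2 ± 4.33 CPM in wild type libraries (SD, n = 4 each), each had a log2 fold change of -0.51. Mcm10 was 2.13-fold higher in mutant 1 than in the mean of mutant 2 to 4, the most of the 39 genes.

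**Figure D2:**
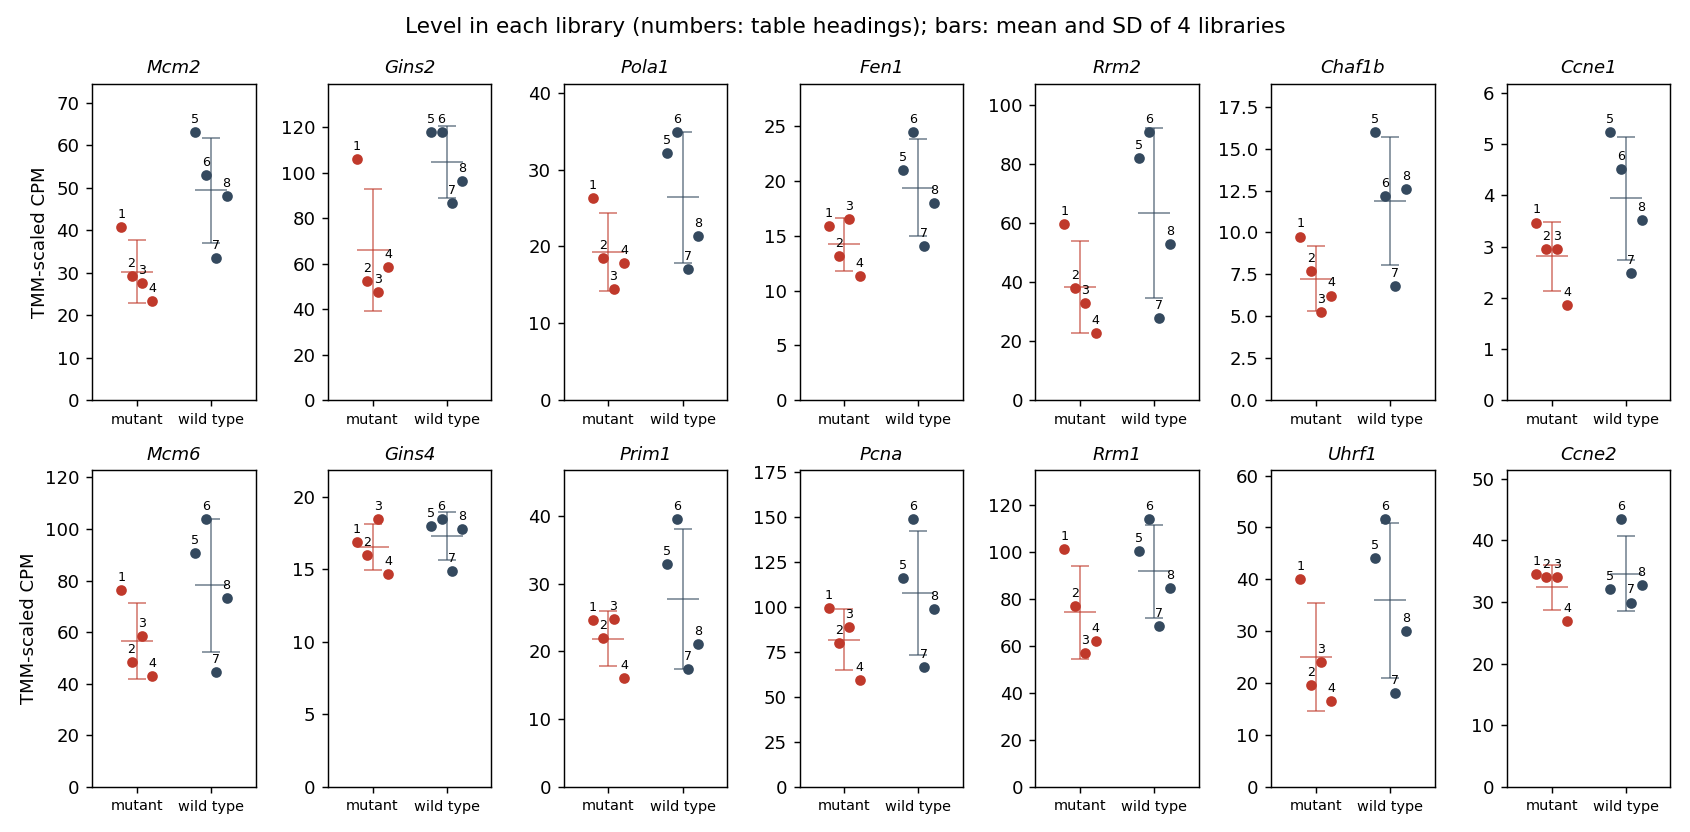
Points give the TMM-scaled CPM of 14 genes in each library, with mutant left of wild type, numbers as in the table's headings, and bars for the mean and SD of 4 libraries. In most panels mutant 1 stands above the other mutants and wild type 7 below the other wild types, and the groups overlap in every panel.

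Polymerase and primase genes overlapped widely between genotypes. Pola1 (chromosome X, 93304767 to 93632155), the catalytic subunit of polymerase alpha, had 2.99, 2.1, 1.63 and 2.03 CPM per kb of gene length in mutant 1 to 4, against 3.66, 3.95, 1.94 and 2.41 CPM per kb in wild type 5 to 8, with a log2 fold change of -0.45 (edgeR adjusted p = 0.472, SE 0.244). Prim1 (chromosome 10, 128015168 to 128030037), the catalytic primase subunit, had 24.6, 22, 24.8 and 16.1 CPM in mutant 1 to 4, against 32.9, 39.6, 17.4 and 21.1 CPM in wild type 5 to 8. For Prim1 the negative fold change of -0.34 (edgeR adjusted p = 0.586, SE 0.247) rested on wild type 5 and wild type 6, since the 2 remaining wild types lay below mutant 1 and mutant 3. The catalytic subunits Pole and Pold1 had log2 fold changes of -0.37 (SE 0.314) and -0.36 (SE 0.345). Pole stood at 33.1, 17.1, 17.4 and 15.6 CPM in mutant 1 to 4, against 32.6, 38.2, 16.2 and 20.4 CPM in wild type 5 to 8, so that 3 libraries made 1 level and 5 another, across genotypes.

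Among clamp, clamp loader and lagging-strand genes, the loader subunits Rfc2, Rfc3, Rfc4 and Rfc5 had log2 fold changes of -0.18 (SE 0.128), -0.13 (SE 0.137), -0.03 (SE 0.203) and 0.21 (SE 0.123). Rfc5 had 37.9, 53.5, 50.9 and 47.5 CPM in mutant 1 to 4, against 38.8, 38.7, 43.1 and 43.8 CPM in wild type 5 to 8. Mutant 1, wild type 5 and wild type 6, high for most of the 39 genes, were the 3 lowest for Rfc5. Pcna (chromosome 2, 132249162 to 132253314), the sliding clamp, had 99.2, 80, 88.7 and 59.1 CPM in mutant 1 to 4, against 116, 149, 66.4 and 98.9 CPM in wild type 5 to 8, with a log2 fold change of -0.40 (edgeR adjusted p = 0.505, SE 0.232). Its processed pseudogene Pcna-ps2 was counted at 62.8 ± 14 CPM in mutant and 80.5 ± 24 CPM in wild type libraries (SD, n = 4 each), so that reads may have been split between near-identical copies and the level of Pcna is uncertain.

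Fen1 (chromosome 19, 10199132 to 10204169), which trims flaps of Okazaki fragments, had 15.9, 13.2, 16.5 and 11.3 CPM in mutant 1 to 4, against 21, 24.5, 14.1 and 18 CPM in wild type 5 to 8. Only wild type 7 reached into the mutant range, with a log2 fold change of -0.45 (edgeR adjusted p = 0.352, SE 0.184). Fen1 shares 78.8% of its exonic bases with the antisense gene Gm10143, whose log2 fold change was -0.44. Gm10143 had 15.3, 13.2, 16 and 11.5 CPM in mutant 1 to 4. In wild type 5 to 8 it had 20.8, 23.4, 14.2 and 17.6 CPM. These values nearly equal those of Fen1 in each library. Reads of both genes cannot be told apart there, so Gm10143 is not a separate observation. Lig1, the ligase that seals the fragments, had 28, 21.8, 23.6 and 17.6 CPM in mutant 1 to 4, against 37.3, 33.3, 20.5 and 30.9 CPM in wild type 5 to 8, and a log2 fold change of -0.42 (edgeR adjusted p = 0.387, SE 0.189).

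Nucleotide supply genes were among the most variable between libraries. Rrm2 (chromosome 12, 24708241 to 24714146), the S phase subunit of ribonucleotide reductase, had 59.5, 37.8, 32.9 and 22.7 CPM in mutant 1 to 4, against 82, 90.8, 27.8 and 52.7 CPM in wild type 5 to 8. Its log2 fold change was -0.73 (edgeR adjusted p = 0.488, SE 0.397), as large as that of Mcm3, but its highest wild type library exceeded the lowest 3.26-fold. Rrm1 (chromosome 7, 102441695 to 102469771), the large subunit, had 101, 76.8, 57 and 61.9 CPM in mutant 1 to 4, against 100.2, 114, 68.2 and 84.5 CPM in wild type 5 to 8, with a log2 fold change of -0.31 (edgeR adjusted p = 0.537, SE 0.197). Tk1, the cytosolic thymidine kinase, spread most of all within wild types, 4.24-fold, with 18.6, 12.6, 9.97 and 7.24 CPM in mutant 1 to 4, against 21.5, 29.6, 6.98 and 12.1 CPM in wild type 5 to 8. Tyms, the thymidylate synthase, had a log2 fold change of -0.40 (SE 0.233).

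The 3 genes that copy chromatin with the DNA all had negative fold changes. Chaf1b (chromosome 16, 93883901 to 93906115), a subunit of the CAF-1 histone chaperone, had 9.76, 7.72, 5.26 and 6.24 CPM in mutant 1 to 4, against 16, 12.2, 6.78 and 12.6 CPM in wild type 5 to 8, a log2 fold change of -0.72 (edgeR adjusted p = 0.299, SE 0.262). Wild type 7 again was the sole wild type library inside the mutant range. Uhrf1 (chromosome 17, 56303321 to 56323486), which recruits the maintenance DNA methyltransferase, had 40, 19.7, 24 and 16.6 CPM in mutant 1 to 4, against 44.1, 51.7, 18.1 and 30 CPM in wild type 5 to 8, a log2 fold change of -0.52 (edgeR adjusted p = 0.568, SE 0.354). Chaf1a, the large CAF-1 subunit, had -0.47 (SE 0.278). In the GENCODE annotation it shares 52.5% of its exonic bases with Ubxn6, or 4648 of 8854. The length given with the counts is 3308 bases for Chaf1a, so the share among the counted bases is uncertain.

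Of the G1/S regulators among the 39, the cyclin E gene Ccne1 (chromosome 7, 38097984 to 38107534) was the lowest in level, at 3.47, 2.95, 2.95 and 1.86 CPM in mutant 1 to 4, against 5.24, 4.52, 2.49 and 3.52 CPM in wild type 5 to 8 (log2 fold change -0.49, SE 0.273, edgeR adjusted p = 0.485). Ccne2 (chromosome 4, 11191351 to 11204779), the other cyclin E gene, was nearly level, at 34.5, 34, 34.1 and 26.9 CPM in mutant 1 to 4, against 32.1, 43.5, 29.9 and 32.8 CPM in wild type 5 to 8. Its log2 fold change was -0.09 (edgeR adjusted p = 0.813, SE 0.141), and it turned to 0.04 without wild type 6. E2f1, the activating transcription factor, averaged 27.4 ± 5.7 CPM in mutant and 31.9 ± 7.95 CPM in wild type libraries (SD, n = 4 each).

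**Figure D3:**
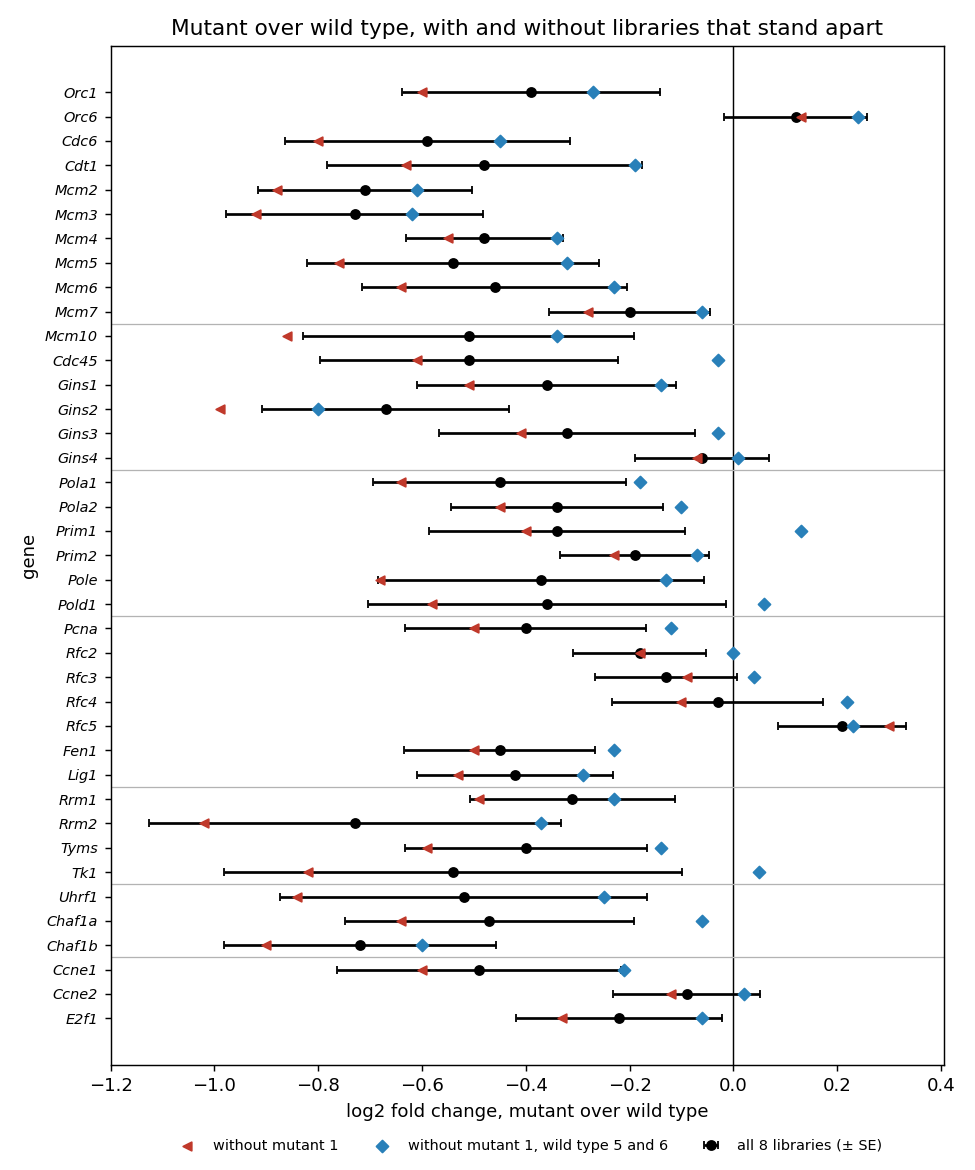
Black points give the log2 fold change (mutant over wild type) of each gene with its SE from all 8 libraries, red triangles the value without mutant 1, and blue diamonds the value without mutant 1, wild type 5 and wild type 6. Most triangles lie left of the black points and most diamonds right of them, and Gins2, Mcm2, Mcm3 and Chaf1b stay at -0.60 or below under both.

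How large the difference looked depended on which libraries entered. Without mutant 1 the median log2 fold change of the 39 genes was -0.58, and 20 had an unadjusted p below 0.05, where 19.2% of all genes did. Mcm2 (log2 fold change -0.88, edgeR adjusted p = 0.0328) and Gins2 passed as lower there. Of all genes 1.03% passed as lower without mutant 1, against 0.215% with all libraries. Without wild type 7 the median was -0.57 and 28 of the 39 had an unadjusted p below 0.05, where 13.9% of all genes did, but none passed, the smallest edgeR adjusted p being 0.0897 for Mcm2. Without wild type 6 the median was -0.24. With these 3 libraries left out (mutant 1, wild type 5, wild type 6), a choice made after seeing the data, the median was -0.14, 29 of 39 genes had a negative fold change and Gins2 alone passed (log2 fold change -0.80, edgeR adjusted p = 0.0268). In that setting 0.377% of all genes passed as lower. Gse1, which shares exonic bases with Gins2, also passed there (log2 fold change -0.78, edgeR adjusted p = 0.0338). The libraries left out were high for most of the 39 genes, so the smaller median is no independent result. The count of the 39 that passed was 0 without mutant 2, 3 or 4, where 0.163%, 0.181% and 0.13% of all genes passed. It was also 0 without wild type 5, 6, 7 or 8, where 0.182%, 0.384%, 0.319% and 0.16% passed.

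The spread within a genotype was wider for these genes than for most genes of similar level. The median coefficient of variation over 4 libraries (SD over mean) was 24.4% in mutant and 29.7% in wild type libraries, against 15.7% in mutant and 12.9% in wild type libraries for the 10762 tested genes whose mean level lay in the same range, 3.38 to 94.7 CPM. The fitted variability of a gene was above the trend for genes of its level in 28 of 39 genes, or 71.8%, against 24.9% of the genes in that range. The spread was wider in wild types than in mutants for 28 of 39 genes, where 39.3% of the genes in that range were.

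In mutant libraries the coefficient of variation was highest for Mcm10 (44.4%), Uhrf1 (41.6%) and Gins2 (41%), and lowest for Rfc2 (6.93%), Prim2 (9.16%) and Gins4 (9.5%). In wild type libraries it was highest for Tk1 (57.2%), Pold1 (47.4%) and Rrm2 (45.4%), and lowest for Rfc5 (6.59%), Gins4 (9.51%) and Rfc3 (11.3%). Cdc45 differed most in the wild type direction, at 19.5% in mutant and 41.4% in wild type libraries, and Gins2 most in the mutant direction, at 41.0% in mutant and 15.0% in wild type libraries. These differences in spread rest on 4 libraries a group and were not tested. By role, the summed level spread most for chromatin copying genes, 2.11-fold among mutants and 2.48-fold among wild types, and least for the clamp and joining genes among mutants, 1.33-fold, and for the helicase activation genes among wild types, 1.52-fold. That last sum was mostly Gins2, at a mean of 105 of 168 CPM in wild types. Gene by gene, the helicase activation genes spread by a median of 2.05-fold among wild types, more than the 1.73-fold of the clamp and joining genes.

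**Figure D4:**
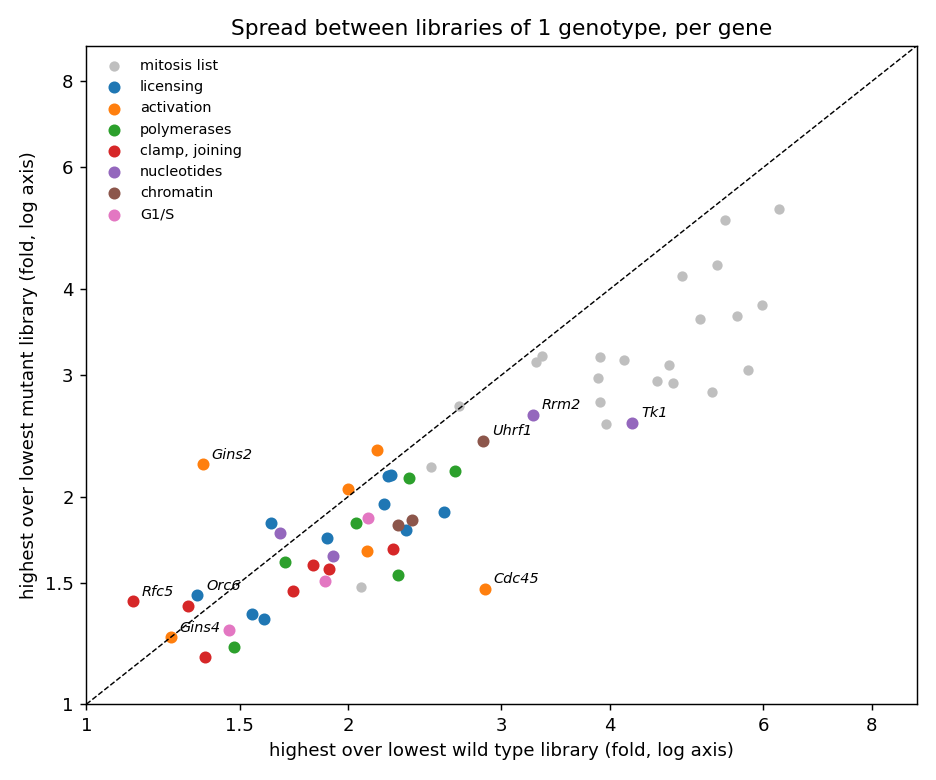
Each point is a gene, with the ratio of its highest to its lowest mutant library on the y axis and the same ratio for wild types on the x axis, both on log axes, and the dashed line marks equal spread. Most replication genes lie below the line at 1.1 to 4.24-fold among wild types, Gins2 lies far above it, and mitosis genes (grey) reach further on both axes.

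Per kilobase of the length given in the table, which allows levels of different genes to be compared, Mcm6 was the highest ring subunit at 19.5 ± 5.09 CPM per kb in mutant and 26.9 ± 8.81 CPM per kb in wild type libraries, and Mcm5 the lowest at 2.91 ± 0.85 CPM per kb in mutant and 4.24 ± 1.52 CPM per kb in wild type libraries (SD, n = 4 each). Between them, Mcm2, Mcm4 and Mcm7 stood at 8.98, 9.89 and 10.7 CPM per kb in mutant libraries and at 14.7, 13.8 and 12.3 CPM per kb in wild type libraries, and Mcm3 at 5.42 CPM per kb in mutant and 9 CPM per kb in wild type libraries. Mcm7 stood above Mcm2 in each of the 4 mutant libraries (12.6 against 12.1, 9.48 against 8.71, 11.2 against 8.18 and 9.59 against 6.95 CPM per kb in mutant 1 to 4) and below it in each of the 4 wild type libraries, an order seen in the values and not tested. It depends on the lengths used, since in CPM Mcm7 stood above Mcm2 in every library, the closest being 63.4 against 63.2 CPM in wild type 5. The pair was picked after the values were seen, and the share of gene pairs with such an order was not counted. Although the 6 proteins form 1 ring, their RNA levels spanned a wide range in both genotypes. Rrm1 and Rrm2 were level with each other in wild types, at 23 ± 4.96 and 22.9 ± 10.4 CPM per kb, and stood at 18.6 ± 4.94 and 13.8 ± 5.6 CPM per kb in mutants (SD, n = 4 each). Pcna was the highest of the 39, at 34.1 ± 7.09 CPM per kb in mutant and 44.9 ± 14.4 CPM per kb in wild type libraries, and Ccne1 was the lowest, at 1.06 ± 0.254 CPM per kb in mutant and 1.48 ± 0.451 CPM per kb in wild type libraries.

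Other genes of the pathway, listed apart from the 39, gave no call either. None of 46 further replication factors passed, and 32 of the 46 had a negative fold change, with a median of -0.21. At an unadjusted p below 0.05, 9 were lower and 2 higher in mutants. The smallest p were those of Pold4, an accessory subunit of polymerase delta, at 4.78 ± 0.886 CPM in mutant and 2.93 ± 0.424 CPM in wild type libraries (log2 fold change 0.71, edgeR adjusted p = 0.208), and of the histone chaperone Nasp, at 168 ± 12.7 CPM in mutant and 225 ± 42.5 CPM in wild type libraries (log2 fold change -0.42, edgeR adjusted p = 0.249). DESeq2 called Pold4 as higher (adjusted p = 0.0423).

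None of 29 G1/S regulators passed, with a median of -0.29 and, at an unadjusted p below 0.05, 5 lower and 1 higher. E2f3, an activating E2F, stood at 28.5 ± 3.12 CPM in mutant and 39.8 ± 4.56 CPM in wild type libraries (log2 fold change -0.48, edgeR adjusted p = 0.147). Tfdp1, the dimer partner of E2F proteins, stood at 27.5 ± 2.77 CPM in mutant and 36.6 ± 5.14 CPM in wild type libraries (log2 fold change -0.41, edgeR adjusted p = 0.241; SD, n = 4 each). The groups did not overlap for E2f3 and Tfdp1, or 6.9% of the 29, near the 6.17% of all tested genes. Among the 46 further replication factors they did not overlap for Orc3, Mcm9, Rpa3, Pold4 and Dck, or 10.9%, of which Mcm9 and Dck were lower and the others higher in mutants; these genes were named after their values were seen. E2f3 passed as lower without mutant 1 (edgeR adjusted p = 0.0446), where 1.03% of all genes passed as lower. It also passed as lower with DESeq2 (adjusted p = 0.0337), which called 2.51% of all genes in either direction.

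The mitosis genes followed the same libraries with a wider swing. None of 22 passed by edgeR, DESeq2 or limma-voom and none had an unadjusted edgeR p below 0.05, although their median log2 fold change of -0.71 was further from 0 than that of the 39. Their summed level was 1312, 694, 533 and 419 CPM in mutant 1 to 4 and 1815, 1752, 485 and 701 CPM in wild type 5 to 8. Mutant 1, wild type 5 and wild type 6 were the 3 highest of 8 libraries for all 22 mitosis genes and for 22 of the 39 replication genes. The share of all tested genes with that order was not counted either. Of the genes on this list, Mki67 ranged from 112 to 360.3 CPM in mutant and from 141 to 471 CPM in wild type libraries. Kif20a and Aurka, with the smallest p of the list, had log2 fold changes of -0.38 (edgeR adjusted p = 0.463, SE 0.204) and -0.91 (edgeR adjusted p = 0.544, SE 0.58). The ratio of the summed replication level to the summed mitosis level was 0.937, 1.33, 1.82 and 1.88 in mutant 1 to 4 and 0.8, 0.891, 1.79 and 1.66 in wild type 5 to 8. It was below 1 in mutant 1, wild type 5 and wild type 6, and above 1 in the other libraries. With each library's mean log2 level of the mitosis list as a covariate, a choice made after seeing the data, the median of the 39 genes was -0.12, 33 were negative, and 5 had an unadjusted p below 0.05 (Mcm2, Mcm3, Mcm4, Gins2 and Chaf1b), a share near the 10.5% of all genes in that fit. None passed there, where 0.852% of all genes did, the smallest edgeR adjusted p being 0.0773 for Mcm2.

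**Figure D5:**
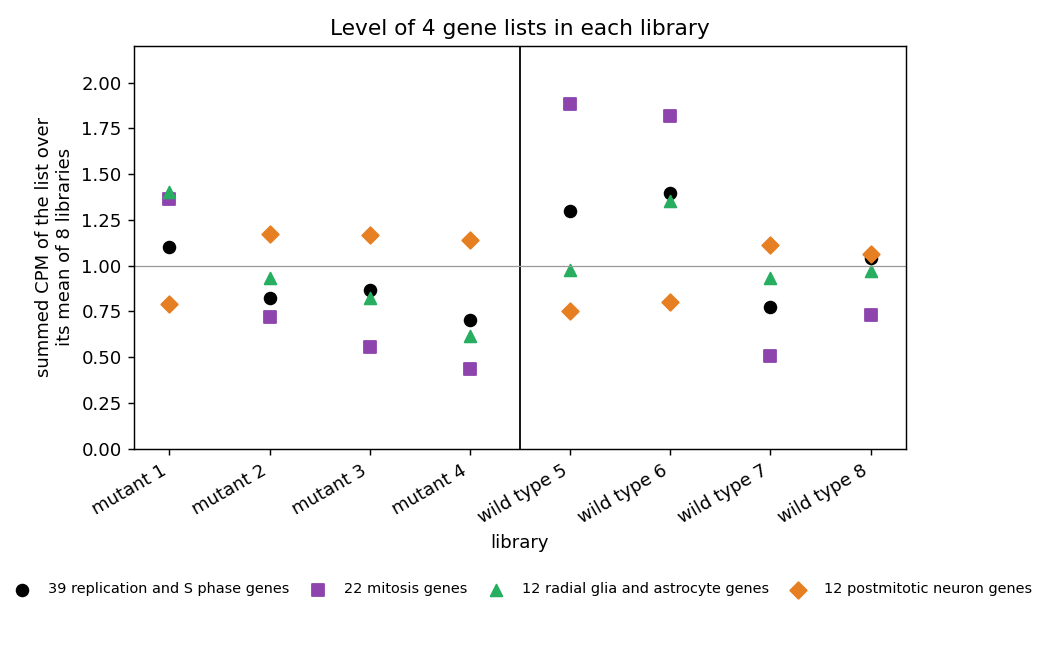
Points give the summed CPM of each gene list divided by that list's mean over the 8 libraries, with mutant left of the line and wild type right. The replication list (black) and the mitosis list (purple) are high in mutant 1, wild type 5 and wild type 6, where the neuron list (orange) is low.

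Markers of cell types moved with these libraries in part. The 10 rhombic lip and granule progenitor genes summed to 4784 CPM in mutant 1 and 4985 to 6268 CPM in mutant 2 to 4. They summed to 4617, 4465, 5232 and 4736 CPM in wild type 5 to 8. Among wild types the order of this sum was the reverse of that of the replication genes. Among mutants the sum was lowest in mutant 1, where the replication genes were highest. The other mutants did not follow that order, with 6268 CPM in mutant 3 and 5415 CPM in mutant 4, the lowest mutant for the replication genes. The mean log2 CPM of the same 10 genes was instead highest in mutant 1 (6.13) and wild type 6 (6.03) within their groups, with wild type 5 at 5.56. The 12 postmitotic neuron genes summed to 5005 CPM in mutant 1 and 7196 to 7429 CPM in mutant 2 to 4, and to 4772 and 5079 CPM in wild type 5 and wild type 6 against 7034 and 6726 CPM in wild type 7 and wild type 8, the reverse of the replication genes. The 12 radial glia and astrocyte genes summed to 455 to 1034 CPM in mutant and 689 to 998 CPM in wild type libraries, with mutant 1 and wild type 6 high but wild type 5, at 719 CPM, not. Microglia genes (7 of 10 tested) summed to 11 to 17.7 CPM in mutant and 14.7 to 24.6 CPM in wild type libraries, and C1qa passed as lower (0.203 ± 0.104 CPM in mutant and 2.36 ± 1.19 CPM in wild type libraries, SD, n = 4 each, edgeR adjusted p = 0.0115), although not without mutant 2, without mutant 4, with limma-voom, or without the libraries mutant 1, wild type 5 and wild type 6. It was too low to be tested under a minimum of 1 CPM in 4 libraries. The remaining lists were low throughout, with at most 85.2 CPM in mutant and 104 CPM in wild type libraries for 8 oligodendrocyte lineage genes, 15.4 CPM in mutant and 23.6 CPM in wild type libraries for 8 endothelial genes, 15.7 CPM in mutant and 22.4 CPM in wild type libraries for 6 of 8 pericyte and meningeal genes, and 6.88 CPM in mutant and 9.84 CPM in wild type libraries for 2 of 6 erythroid genes. The part of these markers in the replication values was not tested.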

How the data were processed

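RNA of sorted cells was made into libraries from 2 ng of total RNA with 14 PCR cycles, and 8 pooled libraries were run on 3 lanes, per the labels' protocols. The authors deposited raw read counts per Ensembl gene and a length per gene that the header calls width. Per the submitters' processing notes, reads were base-called by bcl2fastq 1.8.4 and set on mm10. Aligner, counter, annotation and strand setting are not given in the sources used here. Without strand or unique alignment stated, overlapping genes and near-identical copies may share reads: 14 of the 39 genes share exonic bases with another tested gene, 8 of them at least 10%. These shares use GENCODE exons, whose total differs from the deposited length for some genes. For Rfc2 it is 6303 against 1518 bases, so the shares may not describe the bases that were counted.

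Columns name the group and not the sample. No pair of libraries agreed within sampling noise (lowest chi-square per gene 18.2). After filterByExpr and TMM scaling, genes were tested in R 4.3.3 with edgeR 4.0.16 (robust quasi-likelihood F test, no covariate, Benjamini-Hochberg adjusted p below 0.05 over all genes). The SE is the absolute log2 fold change over the square root of F. Alternatives used DESeq2 1.42.0 and limma 3.58.1. Positions are from GENCODE on the same build, and 37607 of 39017 identifiers had a symbol. Precision is limited by 4 libraries a group and a biological coefficient of variation of 23.2%.

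The members and lists were chosen with earlier results of these data known. Values per library are given, in each role group, for the gene with the smallest p and the one with the highest level (the next highest, Gins4, where Gins2 was both), and for genes added after their values were seen (Mcm3, Orc6, Pole, Rfc5, Lig1 and Tk1). The 2 genes with the smallest p are named from other pathway lists.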

Additional observations from a re-analysis of the deposited data

Results flagged for a closer look

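Of 82 groups of 4 libraries examined (the 39 genes, Hoxa2 and Hoxb2, in each genotype), 3 held a library whose gap to its neighbour, as a share of the group's range, was above Dixon's 95% critical value, where chance alone would flag about 1 in 20. Pole stood at 33.1 CPM in mutant 1, against 15.6 to 17.4 CPM in the other mutants. Ccne2 stood at 26.9 CPM in mutant 4, against 34 to 34.5 CPM in the other mutants. Hoxb2 stood at 46.6 CPM in wild type 6, against 37.4 to 38.9 CPM in the other wild types.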

How the results depend on the processing

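No paired analysis was possible because the table's headings do not carry the replicate numbers of the sample titles, so no replicate block could be fitted. Across 19 alternatives the count of the 39 genes passing as lower in mutants was 0 in all but the following settings. It was 2 without mutant 1, where 1.03% of all genes passed as lower. It was 1 without the 3 libraries mutant 1, wild type 5 and wild type 6, where 0.377% did. In no setting did any of the 39 pass as higher. Leaving out 1 library moved the count of the 39 passing as lower between 0 and 2, and their median log2 fold change between -0.58 and -0.24. The median coefficient of variation ran between 17.3% and 28.4% in mutant and between 17% and 33.3% in wild type libraries, and was 18.1% in mutant and 21.2% in wild type libraries with those 3 libraries left out.

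The count of all genes passing, 70, ran from 26 to 544 with 1 library left out, and was 214 with no low-count filter, 489 with DESeq2, 233 with limma-voom with quality weights, 171 with the 3 libraries left out and 166 with the mitosis covariate. Among further replication factors DESeq2 called 1 as higher. Among G1/S regulators DESeq2 and limma-voom with quality weights called 1 each as lower, and leaving out 1 library gave 0 to 1.

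Of 266 values run for 14 genes (the smallest p and the highest level in each role group), 5 changed sign, none of them called: Ccne2 at 0.04 without wild type 6 (from -0.15 to 0.04 with 1 library left out), 0.02 with the 3 libraries left out and 0.00 with the mitosis covariate, and Gins4 at 0.01 and Prim1 at 0.13 with the 3 libraries left out. A further 3 passed, for Mcm2 and Gins2. The cause was not tested. The lowest count of the 39 genes in any library was 69.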
